A study of Mus musculus with 6 samples.

Results

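Messenger RNA of 48 genes that carry a dividing cell through mitosis and cytokinesis was compared between control and model small intestine of mice. The genes were taken by symbol from a given list of mitotic regulators, and all 48 were found among the 33017 genes of the deposited count table. Of these, 46 had enough reads to be tested, while Bub3 and Prc1 were listed at 0 in all 6 libraries. The labels name 2 groups, control and model, with 3 libraries each from frozen whole small intestine, and give no strain, age, sex, dose or intestinal segment. Simulated microgravity, radiation and a compound meant to protect are named in the series title. The design text speaks of factors acting jointly, so the question was whether model tissue, read here as tissue exposed to both, differed from control tissue in its mitotic transcripts. No library is labelled as given the compound, and no label says that libraries of a group came from separate animals. The p-values therefore rest only on the scatter among these libraries, and that scatter could be technical.

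Mitosis begins when cyclin B and CDK1 become active, and it ends when the anaphase-promoting complex, with its activator CDC20, marks cyclin B and securin for destruction. In between, chromosomes are compacted by condensin and topoisomerase II, attached to the spindle at kinetochores, and watched by the spindle checkpoint. The midzone and the contractile ring then divide the cell. Most of these genes are transcribed late in the cell cycle through a shared route, in which MuvB with B-MYB and FOXM1 binds an element called CHR (cell cycle genes homology region) and NF-Y binds CCAAT boxes nearby. In the small intestine, dividing cells are mainly the transit-amplifying and stem cells of the crypts, with lymphoid follicles as another source.

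The promoters of the members show these shared elements, and 6 of them are printed. They were chosen to cover genes below all controls in model 1 and model 3 (Top2a, Kif11), genes that differed little (Cdk1, Ube2c) and the anaphase activator Cdc20. The last, Pttg1, is the member that stood highest in model 1 relative to its own mean. Each line gives the 120 bases just before the transcription start, from RefSeq windows of build GRCm38, read 5′ to 3′ in the direction of the gene. Capitals mark the letters TTTGAA or TTCGAA (CHR) and CCAAT, each on either strand, so that TTCAAA and ATTGG are their reverse forms.
Cdk1: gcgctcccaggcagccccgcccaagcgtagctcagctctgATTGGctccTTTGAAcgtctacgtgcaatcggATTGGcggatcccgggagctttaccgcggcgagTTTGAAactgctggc
Top2a: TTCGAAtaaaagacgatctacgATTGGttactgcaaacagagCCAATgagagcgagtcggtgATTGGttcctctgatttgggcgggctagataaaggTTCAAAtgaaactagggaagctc
Cdc20: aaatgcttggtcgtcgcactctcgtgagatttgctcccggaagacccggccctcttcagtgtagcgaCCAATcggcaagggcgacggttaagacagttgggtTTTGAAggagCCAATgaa
Kif11: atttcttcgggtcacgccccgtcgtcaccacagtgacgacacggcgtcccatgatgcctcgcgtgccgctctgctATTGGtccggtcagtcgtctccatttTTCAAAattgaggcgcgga
Ube2c: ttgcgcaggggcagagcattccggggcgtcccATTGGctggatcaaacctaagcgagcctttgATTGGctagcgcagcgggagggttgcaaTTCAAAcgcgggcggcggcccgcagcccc
Pttg1: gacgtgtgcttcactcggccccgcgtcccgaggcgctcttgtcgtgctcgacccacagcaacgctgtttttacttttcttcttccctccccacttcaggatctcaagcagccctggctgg
These stretches lie at chr10:69352913-69353032 on the minus strand, chr11:99024190-99024309 on the minus strand, chr4:118437344-118437463 on the minus strand, chr19:37376262-37376381 on the plus strand, chr2:164769809-164769928 on the plus strand and chr11:43425982-43426101 on the minus strand. Cdk1 held 2 CHR matches and 2 CCAAT boxes in this stretch, Top2a 2 and 3, Cdc20 1 and 2, Kif11 1 and 1, and Ube2c 1 and 2. Pttg1 held 0 of either. In the full windows of 250 bases before to 50 bases after the start, which the table holds for 40 of the members in 43 windows, 34 windows (79.1%) had a CHR match and 33 (76.7%) had a CCAAT box. The same letters were found in 19.2% and 37.4% of all 32851 windows of that length. A CCAAT box was nearly as common in windows of further mitosis genes (70.6%) and S phase genes (73.7%), and less so for the anaphase-promoting complex (38.9%). TTTGAA together with CCAAT stood in 65.1% of the member windows and in 6.95% of all windows. A CHR match and a CCAAT box shared letters in 1 member window. A match describes letters only, and none was shown here to be bound.

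Depth was similar in all libraries, from 35007515 to 45285564 counts, and the least abundant tested member, Cdc25c, still had at least 140 reads in each library. Several libraries stood apart from the rest. In control 3, the apolipoprotein gene Apoa4 was at 12.6 CPM (the depth-normalised count, relative to the TMM-scaled total) and the fatty acid binding gene Fabp1 at 0.926 CPM, against at least 945 and 822 CPM in the other libraries. The 6 Paneth cell markers in the table summed to 7145 CPM in control 3 and to between 22.4 and 1979 CPM elsewhere, with Pla2g2a at 0 in all. Model 3 carried exocrine pancreas transcripts, 6371 CPM over 10 markers against at most 43.9 CPM in any other library, although Cela2a was at 0 in all 6. B cell markers were high in control 3 and model 3 (402 and 242 CPM over 12 markers, Ms4a1 at 0 in all, against 22.0 to 59.4 CPM). In model 1, counts varied with transcript length, as described further on. The enterocyte marker villin (Vil1) was between 1810 and 2389 CPM in every library, but other enterocyte markers were uneven. In control 3, Lct was at 0.997 CPM and Alpi at 276 CPM, against at least 610 and 2981 CPM in the other libraries. Anpep was highest in control 3 (8570 CPM), and Fabp2 was at 0 in all 6.

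Mitotic genes were mostly at lower mean levels in the model group, but by small amounts, and no gene passed the test. Of the 46 tested members, 44 had a lower and 2 (Pttg1 and Ccnb2) a higher fitted level in model than in control tissue, while 42 were lower with RLE scaling. Their median log2 fold change was -0.24, a level 15.3% lower, and single values ran from -0.50 for Kif23 to 0.39 for Pttg1. Over all 15904 genes tested, 51.8% were lower and the median was -0.02. The lower mean did not come from all 3 model libraries alike: model 1 was far below the controls, model 3 somewhat below, and model 2 at the level of the controls. In bulk tissue, fewer dividing cells and less RNA per dividing cell cannot be told apart.

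edgeR's quasi-likelihood test with Benjamini-Hochberg adjustment over all genes called 0 members, and 0% of all genes tested, at an adjusted p under 0.05. The smallest adjusted p of a member was 0.851. At an unadjusted p under 0.05 it gave 1 member, Kif23, against 4.81% of all genes tested. DESeq2 called 25 genes and limma-voom 0, none of them a member. The 3 model values lay below the 3 control values without overlap for 4 members (8.7%), namely Ttk, Ncaph, Kif23 and Racgap1, and such a gap was found for 6.33% of all genes tested. The reverse gap was found for 0 members and 4.73% of all genes. For Ttk the gap was under the rounding of its values, with 12.5 CPM in both control 1 and model 2. Leaving out 1 library changed the picture: without model 1 the members' median was -0.09 with 39 of 46 lower, and without model 2 it was -0.40, with 25 members (against 12.2% of all genes) lower without overlap.

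**Figure D1:**
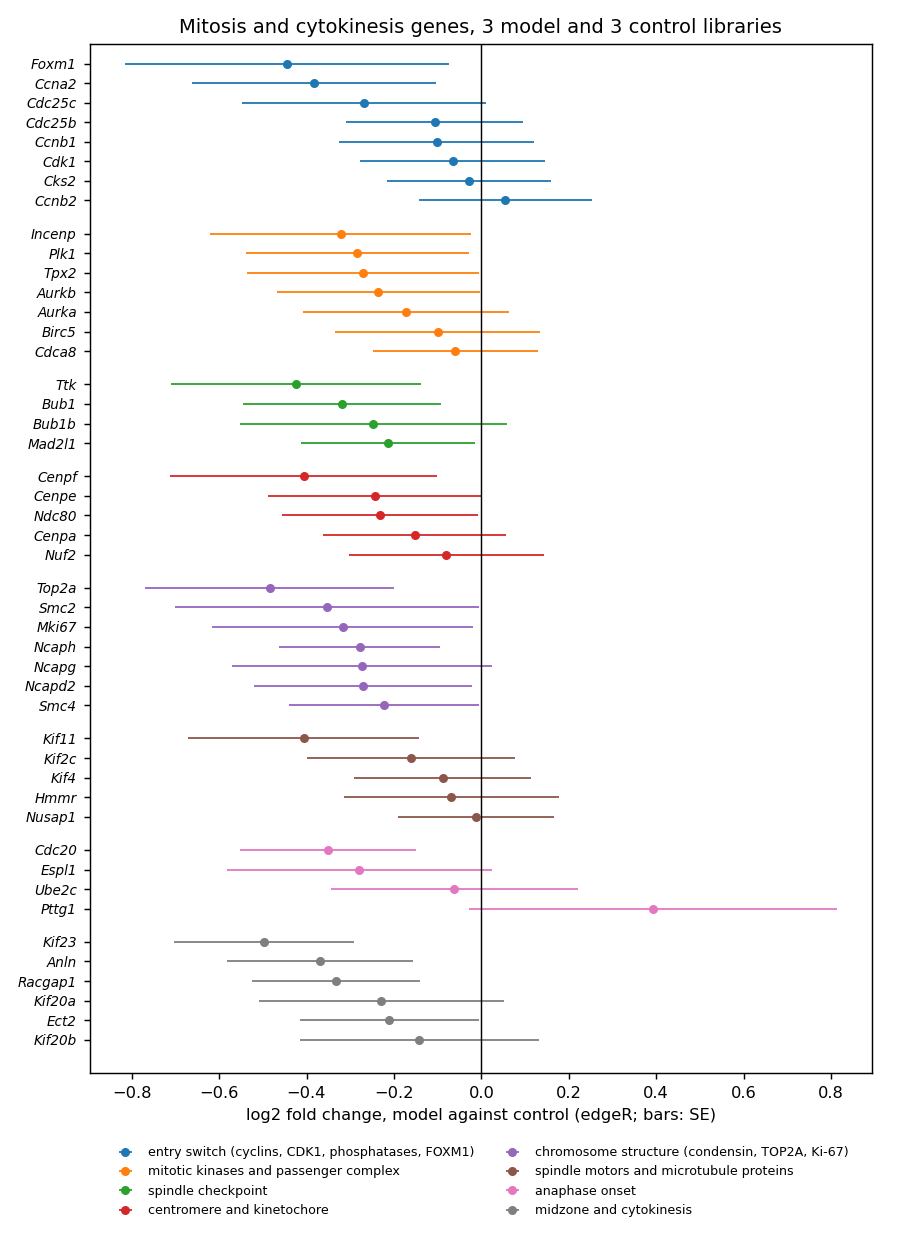
Log2 fold change (x axis, model against control, edgeR) of the 46 tested members, 1 row per gene, coloured and grouped by role, with bars of 1 standard error. All but 2 points (Ccnb2 and Pttg1) lie left of 0, Kif23 lies farthest left at -0.50, and the standard errors run from 0.18 to 0.42.

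Summed over the 48 members, the level was 1999.7, 1904 and 1948.5 CPM in control 1, 2 and 3 and 1266, 1995 and 1606 CPM in model 1, 2 and 3. The controls thus lay within a narrow band (SD 47.9 CPM) that also held model 2, and the model libraries were spread widely (SD 365 CPM). Gene by gene, 34 members in model 1 and 33 in model 3 were below all 3 controls, 26 of them in both libraries. The same was seen for 36.5% of all genes in model 1, 22.4% in model 3 and 12.2% in both. In model 2, 34 members lay within the range of the controls, 8 above it and 4 below it (59.6%, 19.2% and 21.2% of all genes). Model 1 was the lowest library for 31 members (67.4%), against 30.8% of all genes tested. In other cell cycle lists, described further on, it was lowest for 72.7% of cohesin genes and 65% of E2F, RB and MuvB genes. The share was 62.3% for further mitosis genes, 60% for S phase genes, 46.2% for G1 cyclins, kinases and inhibitors and 31.25% for the anaphase-promoting complex. The SD of log2(CPM + 0.5) was larger among model than among control libraries for 39 members (84.8%), against 54.4% of all genes. Its median over the members was 0.34 in model and 0.17 in control tissue. In the other cell cycle lists the share with the larger SD in model libraries ran from 72.7% (cohesin) to 90% (S phase, and E2F, RB and MuvB). For further mitosis genes it was 84.9%.

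**Figure D2:**
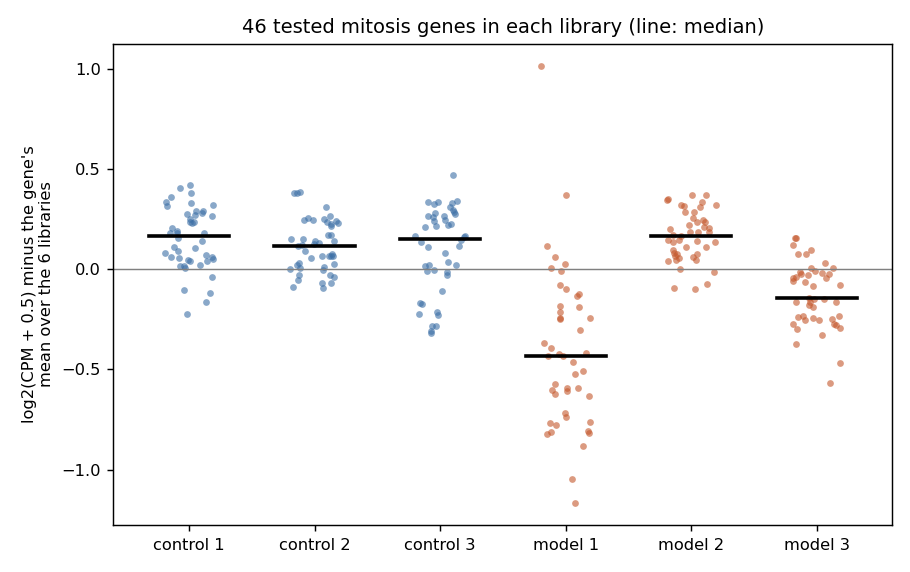
Each point is 1 of the 46 tested members in 1 library (x axis), as log2(CPM + 0.5) minus the gene's own mean over the 6 libraries (y axis), with the median as a line and controls in blue, model in orange. The medians are 0.17, 0.12 and 0.15 in control 1 to 3 and -0.43, 0.17 and -0.15 in model 1 to 3, and the highest point in model 1 is Pttg1.

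The genes that switch mitosis on were divided. Foxm1, the transcription factor that drives late cell cycle genes, was at 32.1, 26.4 and 29.1 CPM in control 1 to 3 and at 10.3, 30.5 and 23.4 CPM in model 1 to 3 (-0.44 as a log2 fold change, SE 0.37). Model 1 was the lowest library, model 3 was also below every control, and model 2 lay among the controls. Ccna2, cyclin A2 of S phase and mitotic entry, was at 56.5, 55.4 and 52.7 CPM in control and 28.0, 58.9 and 39.3 CPM in model tissue (-0.38, SE 0.28), with model 2 above every control. The cyclin B genes and their kinase differed less. Ccnb1 was at 32.5, 31.5 and 33.6 CPM in control and 24.0, 39.0 and 28.0 CPM in model tissue (-0.10, SE 0.22). Ccnb2 was at 35.8, 42.8 and 30.1 CPM in control and 37.5, 40.7 and 34.8 CPM in model tissue (0.05, SE 0.20, but -0.13 with libraries scaled by size alone), with the model values inside the control range. Cdk1, their partner kinase, was at 33.6, 39.7 and 29.6 CPM in control and 33.4, 37.9 and 27.0 CPM in model tissue (-0.07, SE 0.21), so that model 1 lay next to control 1. The 120 bases printed above hold 2 CHR matches for Cdk1 and 2 for Top2a, and the full windows hold 2 and 4. Whether such matches bear on the levels was not tested. Cks2, a small CDK-binding subunit and the shortest transcript of the set, was at 23.0, 23.9 and 22.6 CPM in control and 24.8, 24.2 and 19.2 CPM in model tissue (-0.03, SE 0.19). The CDK-activating phosphatase genes Cdc25b and Cdc25c had log2 fold changes of -0.11 and -0.27.

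Among the mitotic kinases and the chromosomal passenger complex, 7 of 7 members were lower, with a median of -0.24. Plk1, the polo-like kinase of spindle assembly and mitotic exit, was at 48.5, 42.2 and 48.0 CPM in control and 27.6, 51.3 and 35.0 CPM in model tissue (-0.28 on the log2 scale, SE 0.26). Aurka, the spindle pole kinase, was at 27.9, 34.4 and 22.7 CPM in control and 23.1, 30.6 and 21.8 CPM in model tissue (-0.17, SE 0.24). The groups overlapped for each of these kinases. Of the passenger complex, which corrects faulty attachments, Birc5 (survivin) was at 27.8, 29.2 and 20.0 CPM in control and 24.4, 28.0 and 19.5 CPM in model tissue (-0.10, SE 0.23). Its partner Cdca8 (borealin) was at 32.7, 35.0 and 29.1 CPM in control and 32.9, 33.7 and 26.3 CPM in model tissue (-0.06, SE 0.19). In both, model 3 and not model 1 was the lowest library. The other members of this complex behaved otherwise in model 1: Incenp, its scaffold, was at 24.0 CPM there and at 41.5 to 56.7 CPM in all other libraries, and the kinase gene Aurkb was at 19.3 CPM against 23.4 to 33.1 CPM. Incenp, Aurkb and Tpx2, the activator of Aurora A, had log2 fold changes between -0.32 and -0.24.

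The spindle checkpoint holds anaphase until every kinetochore is attached, and its 4 tested genes were all lower, with a median of -0.28. Bub1, a checkpoint kinase, was at 22.5, 18.6 and 21.6 CPM in control and 12.9, 19.6 and 17.8 CPM in model tissue (-0.32 on the log2 scale, SE 0.23). Bub1b, which encodes the CDC20 inhibitor BUBR1, was at 43.5, 32.2 and 38.0 CPM in control and 18.9, 41.3 and 35.6 CPM in model tissue (-0.25, SE 0.31). Only model 1 was below the controls for Bub1b, and without that library its log2 fold change was 0.02. Ttk and Mad2l1 had values of -0.42 and -0.21. Bub3 was listed at 0 in every library, as were Fabp2, an enterocyte gene, and the kinase gene Wee1, so these zeros were not read as absence.

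Centromere and kinetochore genes were lower in 5 of 5 cases, with a median of -0.23. Cenpa, the histone variant that marks the centromere, was at 38.6, 40.1 and 28.8 CPM in control and 29.0, 37.3 and 30.4 CPM in model tissue (-0.15 on the log2 scale, SE 0.21), and all model values were inside the control range. Nuf2, of the microtubule-binding NDC80 complex, was at 15.7, 17.9 and 13.4 CPM in control and 12.7, 17.1 and 14.7 CPM in model tissue (-0.08, SE 0.22). Cenpf, Cenpe and Ndc80 had values from -0.41 to -0.23. Cenpf, the longest transcript of the set, was at 18.0 CPM in model 1 and at 32.2 to 46.8 CPM in the other libraries.

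Genes of chromosome structure were lower in 7 of 7 cases, with a median of -0.28. They had the widest spread among model libraries of all roles (median SD 0.52 on the log2 scale) and also the longest transcripts (median 4629 bases). Levels in model 1 fell with transcript length, as described further on, and the part of length in this spread was not tested. Mki67, which encodes the surface protein of mitotic chromosomes known as Ki-67, was at 252, 213 and 269.6 CPM in control and 122, 255 and 212 CPM in model tissue (-0.32 on the log2 scale, SE 0.30). Top2a, the topoisomerase that untangles sister chromatids, was at 226, 201 and 229 CPM in control and 103, 213 and 152 CPM in model tissue (-0.48, SE 0.29). Model 1 was the lowest library for both, and model 2 lay within the control range. In model 3 both were also below every control, Mki67 only just. Leaving out 1 library gave log2 fold changes from -0.77 to -0.26 for Top2a and from -0.55 to -0.07 for Mki67. Per kilobase of transcript, Top2a had the highest mean level of the set, at 35.9 CPM per kb, followed by Cks2 at 33.2 and Ccnb2 at 24.1, and Mki67 reached 21.9. Smc4, a condensin ATPase, was at 81.4, 87.4 and 93.2 CPM in control and 55.5, 83.3 and 85.7 CPM in model tissue (-0.22, SE 0.22). The condensin genes Smc2, Ncapd2, Ncapg and Ncaph had values from -0.35 to -0.27. All 7 members of this group were lowest in model 1. Their median deviation from the mean over all 6 libraries was -0.78 there and -0.01 in model 3.

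Spindle motors and microtubule proteins had a median of -0.09, with 5 of 5 lower. Kif11, the kinesin that pushes spindle poles apart, was at 57.7, 60.2 and 61.0 CPM in control and 29.7, 59.8 and 45.3 CPM in model tissue (-0.41 on the log2 scale, SE 0.26). Nusap1, a microtubule-bundling protein, was at 30.4, 35.9 and 33.3 CPM in control and 31.2, 30.8 and 36.8 CPM in model tissue (-0.01, SE 0.18). These genes mark the ends of the group, since Kif11 was low in model 1 and model 3 while Nusap1 was highest in model 3. Kif2c, Kif4 and Hmmr lay between, with values from -0.16 to -0.07.

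The genes of anaphase onset were not alike. Cdc20, the activator of the anaphase-promoting complex, was at 48.9, 43.5 and 39.2 CPM in control and 32.5, 40.9 and 29.7 CPM in model tissue (-0.35 on the log2 scale, SE 0.20). Ube2c, the ubiquitin-conjugating enzyme of that complex, was at 50.8, 64.8 and 39.5 CPM in control and 64.1, 48.9 and 35.6 CPM in model tissue (-0.06, SE 0.28). Pttg1, securin, which restrains the separase enzyme, was at 12.5, 16.6 and 11.8 CPM in control and 30.3, 13.8 and 9.77 CPM in model tissue (0.39, SE 0.42). Its positive value came from model 1, which was above every other library, and without model 1 the log2 fold change was -0.21. Espl1, separase itself, went the other way in model 1, with 12.7 CPM there, 27.6 and 19.2 CPM in model 2 and 3 and 20.0 to 26.6 CPM in control tissue (-0.28, SE 0.30). The transcripts of securin and its target thus differed in opposite directions in that library, Pttg1 having the shorter transcript (1674 against 6658 bases). The cause of the difference was not tested.

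Midzone and cytokinesis genes were lower in 6 of 6 cases, with a median of -0.28. Of the 4 members without overlap 2 were in this role, and such a gap was found for 6.33% of all genes tested. No difference between roles was tested. Kif23, the motor of the centralspindlin complex that organises the midzone, was at 48.7, 49.3 and 49.9 CPM in control and 27.1, 41.3 and 36.3 CPM in model tissue. Its log2 fold change was -0.50 (SE 0.21, unadjusted p = 0.0446 and adjusted p = 0.851 in edgeR). Racgap1, the other centralspindlin subunit, was at 54.9, 50.0 and 51.1 CPM in control and 34.4, 48.3 and 41.2 CPM in model tissue (-0.33, SE 0.19). The order of the model libraries was the same for both subunits, with model 1 lowest and model 2 nearest to the controls. This was not particular to them, since model 1 was the lowest model library for 34 of the 46 tested members. Ect2, which activates RhoA at the midzone, was at 34.6, 33.3 and 39.2 CPM in control and 25.0, 36.5 and 31.1 CPM in model tissue (-0.21, SE 0.20). The ring scaffold gene Anln and the kinesin genes Kif20a and Kif20b had values from -0.37 to -0.14. Prc1, the microtubule crosslinker of the midzone, was listed at 0 in all libraries.

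Levels in model 1 varied with transcript length, and whether length itself was the cause was not tested. In that library the deviation of a gene from its mean over the other 5 libraries changed by -0.29 on the log2 scale per doubling of transcript length (15367 genes), against slopes from 0.004 to 0.18 for the other libraries taken in the same way. Transcripts of 1654 bases or less had a median deviation of 0.44 and those of 5031 bases or more one of -0.52. The members followed this course: the 23 shorter ones (692 to 3398 bases) had a median deviation of -0.29 and the 23 longer ones (3421 to 11130 bases) one of -0.73. The members that did not lie below 0 in model 1 were Cdk1, Ccnb2, Cdca8, Cks2, Ube2c and Pttg1, and of these only Cdk1 (4375 bases) has an annotated transcript longer than the median of all tested genes, 3020 bases. Length is that of the longest GENCODE transcript, which need not be the one expressed.

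Within a range of lengths, the members still lay below other genes in model 1. Genes were divided by length into 5 classes of like size, and 41 of the 46 members were below the median of all genes in their class. From the shortest to the longest class these were 4 of 4, 8 of 10, 11 of 11, 11 of 13 and 7 of 8 members. In the middle class (2554 to 3534 bases), where the median of all genes was -0.004, the 11 members had a median of -0.50. The median deviation of the members in model 1 was -0.52 as measured and -0.41 after the library's trend with length was removed, with 39 of 46 below 0. In model 3 the same values were -0.17 and -0.17, and in model 2 they were 0.20 and 0.20. With the length trend removed from every library, the members' median log2 fold change was -0.18, against 0.02 for all genes, with 41 of 46 lower and 0 called by edgeR.

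**Figure D3:**
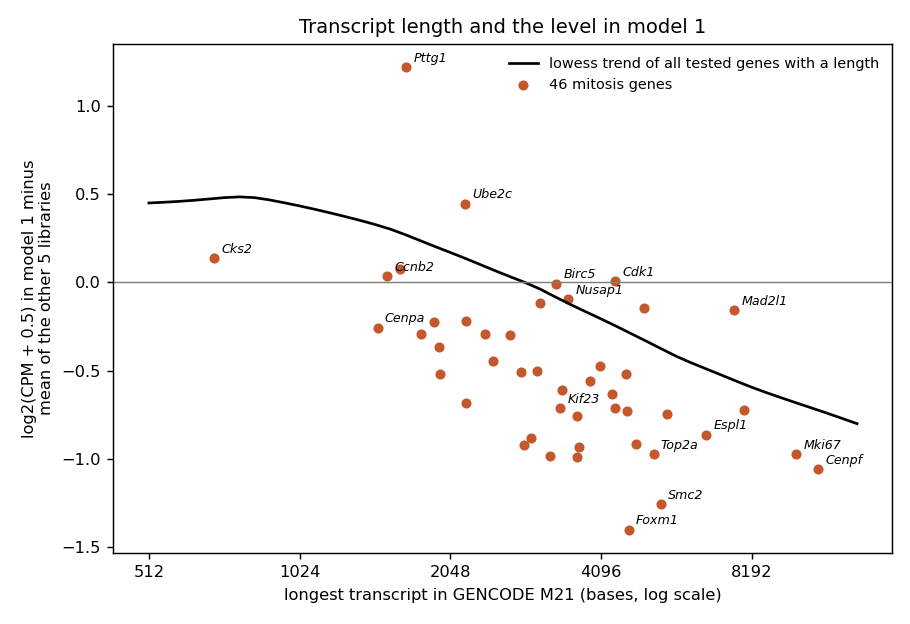
Deviation of each tested member in model 1 from its mean over the other 5 libraries (y axis, log2 scale) against the length of its longest transcript (x axis, bases, log scale), with the lowess trend of all 15367 tested genes with a length as a line. Of the 46 members 39 lie below the line, and those above it are Pttg1, Ube2c, Cdk1, Mad2l1, Kif4, Birc5 and Nusap1.

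Other genes of the cell cycle set the members in context. A list of 53 further mitosis genes had 49 lower and a median log2 fold change of -0.24, with 0 called by edgeR and 0 at an unadjusted p under 0.05. Measured from the gene's mean over all 6 libraries, its median deviation was -0.37 in model 1, 0.13 in model 2 and -0.14 in model 3. On that measure the members were at -0.43, 0.17 and -0.15. Kif15, a spindle motor with the smallest p of this list, was at 28.1 ± 2.35 CPM (SD, n = 3) in control and 19.4 ± 4.92 CPM in model tissue (-0.53, SE 0.24), and Ncaph2, a subunit of the other condensin and the most abundant per length, had a value of 0.05 (SE 0.17). CHR letters stood in 58.8% of the 51 promoter windows of this list.

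The S phase list, genes of DNA synthesis, had 14 of 20 lower and a median of -0.20. Its member with the smallest p, Rrm2 of ribonucleotide reductase, differed in the other direction, at 33.1 ± 3.50 CPM (SD, n = 3) in control and 48.6 ± 7.96 CPM in model tissue (0.55, SE 0.20, edgeR adjusted p = 0.851). Pcna, the polymerase clamp, had a value of 0.33 (SE 0.31). Genes of E2F, RB and MuvB proteins, which time cell cycle transcription, had 12 of 20 lower and a median of -0.15, with Lin37 of MuvB at 0.68 (SE 0.31) and E2f4 at 0.08 (SE 0.17). Among cyclins, kinases and inhibitors that act before S phase, 10 of 13 were lower (median -0.11). The inhibitor Cdkn1a was both the most abundant per length and the one with the smallest p (0.65, SE 0.35).

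The lists of the anaphase-promoting complex and of cohesin had medians nearer to 0. Genes of the anaphase-promoting complex, listed with its coactivator Fzr1 and the enzyme Ube2s, had 6 of 16 lower and a median of 0.06, with Anapc16 at 0.55 (SE 0.30) and Anapc5 at 0.01 (SE 0.18). In model 1 their median deviation from the mean over all 6 libraries was 0.20, above all other libraries. Cohesin genes, which hold sister chromatids together, had 8 of 11 lower and a median of -0.07, with Esco2 at -0.34 (SE 0.25) and Rad21 at -0.07 (SE 0.19). No difference between these lists was tested.

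**Figure D4:**
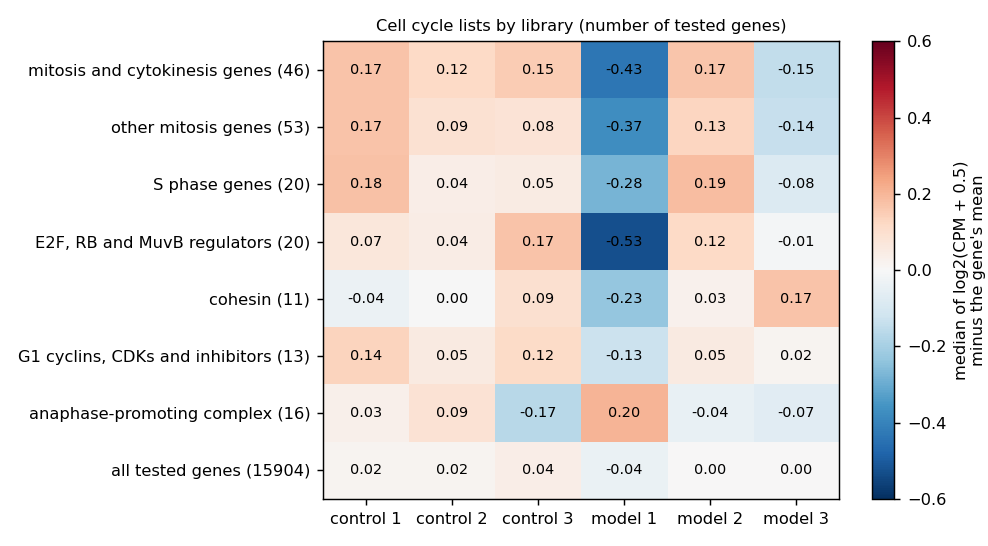
Median deviation from the gene mean, on the scale of log2(CPM + 0.5), of 7 cell cycle lists and of all tested genes (rows, with the number of tested genes) in each library (columns), with blue for low and red for high values. The first row, the members, reads -0.43 in model 1, 0.17 in model 2 and -0.15 in model 3, and all lists but the anaphase-promoting complex (0.20) are below 0 in model 1.

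Markers of the cells that could hold mitotic transcripts were read beside these values. Stem cell markers (11 of 11 in the table) summed to 1181 to 1442 CPM in control and 1143 to 1376 CPM in model libraries, with 7 of 11 lower and a median of -0.29. Lgr5, the receptor of crypt base stem cells, was at 14.7, 5.45 and 21.5 CPM in control and 6.51, 6.67 and 5.87 CPM in model tissue, with control 2 below the other controls. Its log2 fold change (-1.13) was the lowest of the list. The 4 stem cell markers that were higher were Rnf43 (0.42), Ascl2 (0.29), Olfm4 (0.11) and Cdca7 (0.11). Much of the sum was Olfm4, at 468 to 809 CPM in control and 574 to 761 CPM in model libraries. Paneth cell markers, which mark the crypt base, were lowest in control 2 (22.4 CPM) and model 1 (85.6 CPM), where the mitotic sum was 1904 and 1266 CPM. Germinal centre B cell markers (8 of 9 in the table, Mybl1 being also on the E2F list) summed to 72.0 to 90.1 CPM in control and 86.1 to 140.3 CPM in model libraries. Enterocyte markers summed to 14877 to 23166 CPM in control and 19800 to 35794 CPM in model libraries, with Fabp2 at 0 throughout. Their sum was highest in model 1, the lowest library for the members, where Apoa1 (1035 bases) alone was at 13695 CPM. Single markers did not all follow the sum. Fabp1, Alpi and Apoa4 were also highest in model 1, Sis and Slc5a1 in model 3, Vil1 and Lct in control 1 and Anpep in control 3. Anpep was lowest in model 1 (1973 CPM). Levels in model 1 also varied with transcript length, as described above. Smooth muscle markers summed to 1643 to 2463 CPM in control and 1206 to 1384 CPM in model libraries. T cell markers, 9 of 10 in the table, summed to 111 to 131 CPM and 149 to 178 CPM. Red cell markers summed to at most 19.6 CPM in any library, with Alas2 at 0 in all. The part of these cell types in the mitotic values was not tested.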

How the data were processed

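Poly-A RNA of 6 small intestine libraries was sequenced, per the labels' protocols. FastQC, Trimmomatic, STAR and featureCounts were used with build GRCm39, per the submitters' processing notes. Versions, annotation, strand and multi-mapping settings were not given in the sources used here. Therefore reads of overlapping genes and of near-identical copies (pseudogenes of Cks2, Ube2c or Pttg1, for example) cannot be told apart. The authors deposited whole-number counts per gene symbol. The columns were matched to samples by library name, with 0 left over.

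edgeR 4.0.16 (R 4.3.3) was run on all 6 libraries with filterByExpr, TMM scaling, robust quasi-likelihood and the group as the only term. It was also run on simulated data with set changes larger than those of the members. Its ability to find changes of the members' size was therefore not measured. Each SE was taken from the log2 fold change and the F statistic (size of the change over the root of F). Lengths came from GENCODE M21 (96.6% of tested genes matched, all 46 tested members) and promoters from RefSeq (GRCm38.p6), both used by symbol. CPM uses the TMM-scaled total. Alternatives were other scalings, DESeq2 1.42.0, limma-voom (limma 3.58.1), other filters, a replicate block, removal of length trends (lowess span 0.3) and leaving out libraries. Members, roles and 15 further lists (219 entries, 216 in the table) were chosen with earlier results of these data known. Members named with all values are the 3 most abundant per kilobase in each role (2 in roles of 5 or fewer), those with the 3 smallest p in each direction (only 2 were higher) and 6 fixed genes. Other members and cell type markers given single values were chosen after their values were seen, as were the 6 printed promoters. The level of 1 marker gene is not reported here.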

Additional observations from a re-analysis of the deposited data

How the results depend on the processing

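Across the other scalings, filters, tools, the replicate block and the removal of length trends, the members' median log2 fold change stayed between -0.42 (library size alone) and -0.17 (trend removed with each gene's median transcript length, chosen after seeing the data), with 40 to 45 of 46 lower and 0 called. Scaling by library size alone moved the median of all genes to -0.21. Leaving out 1 library gave medians from -0.40 to -0.09, 36 to 43 members lower and 3 to 25 lower without overlap (8.26% to 14.2% of all genes), with 0 genes called by edgeR in each fit (the smallest adjusted p of a member was 0.735). Of these, 25 came without model 2 (12.2% of all genes), 7 without control 1 (12.9%) and 3 without model 1 (10.6%). Without control 3 and model 1 together the median was -0.12, with 36 lower. The number without overlap was 2 with RLE scaling (5.73% of all genes), 7 with library size alone (10.8%), 2 with median transcript lengths (4.52%) and 7 without control 3 and model 1 (17.7%, a larger share than among the members). DESeq2 called 25 genes where edgeR called 0.

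Of the 25 members with all values given, 13 turned sign under some alternative and 0 were called under any. Ccnb2 turned to -0.016 (upper quartile), -0.13 (library size alone), -0.0094 (length trend removed), -0.012 (length trend removed with the replicate block) and -0.062 without control 3 and model 1, where Bub1b was at 0.020, Ccnb1 at 0.065, Mki67 at 0.0062, Nusap1 at 0.023 and Pttg1 at -0.31. Cks2 was at 0.0077 with RLE scaling and 0.0076 with DESeq2, and Nusap1 at 0.021 with both. With length trends removed Cdk1 was at 0.037 and Nusap1 at 0.039 (0.048 with median lengths), or 0.035 and 0.040 with the replicate block as well. Leaving out 1 library, the ranges that crossed 0 were -0.33 to 0.0086 for Aurka, -0.23 to 0.033 for Birc5, -0.47 to 0.020 for Bub1b, -0.32 to 0.043 for Ccnb1, -0.046 to 0.21 for Ccnb2, -0.12 to 0.049 for Cdca8, -0.18 to 0.071 for Cdk1, -0.096 to 0.085 for Cks2, -0.19 to 0.043 for Nuf2, -0.095 to 0.064 for Nusap1, -0.21 to 0.69 for Pttg1 and -0.29 to 0.15 for Ube2c.

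Replicate numbers did not pair the samples: deviations of same-numbered libraries correlated at -0.08, -0.30 and 0.33 across genes, and only control 3 and model 3 correlated best with their own number. With the replicate block the members' median was -0.27, 44 were lower, 0 were called, and 537 genes had an unadjusted p under 0.05 against 765 without it. Standard errors of 0.18 to 0.42 for single members limit what 3 libraries a group can resolve.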
